A study of Homo sapiens with 46 samples.

Results

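Ku80 was depleted for 4 days in 3 clones of HCT116 colon carcinoma cells that lack MAVS. The clones (numbers 1, 13 and 15) had the genotype Ku80-AID, MAVS-/-, in which Ku80 carries an auxin-inducible degron, a tag that marks the protein for destruction when auxin is added. From each clone 1 library was made after 4 days with 100 µM of the auxin indole-3-acetic acid (IAA) together with 0.5 µg/mL doxycycline (dox), and 1 library after 4 days with DMSO. These 6 libraries, taken by their labels, are 6 of the 46 in the study, and each clone serves as its own control. The 46 libraries measured polyadenylated or ribosomal-RNA-depleted RNA of HCT116 and HEK293 cells that had lost Ku by different routes, and of their controls. The closest counterpart is the set of Ku80-AID clones 1, 7 and 9 with intact MAVS, compared here after 4 days of IAA and dox with DMSO at 2 days. The fit also held the other MAVS-intact degron libraries, which had other treatment times or a CDK inhibitor (CDKi in the labels). All these cells carry the degron, and no MAVS-/- cells without it were used here. DMSO cells received neither IAA nor dox, so effects of these compounds and of Ku80 loss cannot be told apart. Each line is a clone, and the labels do not say whether knockout clone 1 and intact clone 1 are related.

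Ku is a ring of Ku70 and Ku80 that slides onto broken DNA ends and recruits the kinase subunit DNA-PKcs for end joining, and it also binds structured RNA. MAVS is the adaptor on the mitochondrial outer membrane through which the cytosolic RNA sensors RIG-I and MDA5 switch on the kinase TBK1 and the transcription factor IRF3. IRF3 starts transcription of interferons, and secreted interferon acts through JAK1, TYK2, STAT2 and IRF9 on promoters of interferon-stimulated genes. The question of the comparison is which RNA changes follow Ku80 depletion when this route is cut at MAVS.

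Levels are in CPM (counts per M counts of the scaled library, M for mega). Each change is the log2 ratio of IAA to DMSO within clones, as fitted, with its standard error after the ± sign. Values of the 3 clones are given in the order 1, 13 and 15, and "with IAA" means IAA and dox. A gene rose or fell where the edgeR quasi-likelihood test gave a Benjamini-Hochberg adjusted p under 0.05 over all genes tested. In bulk RNA, fewer cells with a transcript and less of it per cell cannot be told apart.

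The libraries held 12.7 to 15.9 M counts, and 6.03% to 6.40% of them came from mitochondrially encoded genes. Clone 13 stood apart from the others. Replicate libraries differed by 17.7 to 44.0 chi-square units per degree of freedom where clone 13 was one of the pair, and by 5.20 (DMSO) and 5.95 (IAA) between clones 1 and 15. Across genes, the changes of clones 1 and 15 had a Pearson r of 0.388, those of clones 1 and 13 of 0.283 and those of clones 13 and 15 of 0.271, which describes these libraries since genes are not independent. Results are therefore given by clone, and calls that end without a clone are named. Of 15 colon epithelial markers 8 were above 1 CPM on average, with CDX1 and TFF3 at 0 in all 6 libraries. Their summed level was 2808 to 4334 CPM with DMSO and 3419 to 3678 CPM with IAA. Markers of HEK293 cells summed to 10.8 to 23.8 CPM and those of blood and stroma to 38.8 to 54.5 CPM over both arms.

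MAVS RNA read 159.5, 108 and 149 CPM with DMSO and 184, 146 and 176 CPM with IAA. Every knockout library was below the 262 to 459 CPM of the 26 degron libraries with intact MAVS, and the difference between treatments did not pass the test (0.30 ± 0.13, adjusted p = 0.185). The transcript was thus lower and not absent, and RNA does not show whether protein was made. XRCC5, the gene of Ku80, read 214, 225 and 203 CPM with DMSO and 197, 208 and 227 CPM with IAA, with no call (-0.02 ± 0.13, adjusted p = 0.975). The degron removes protein, so this RNA is no check of depletion. XRCC6, which encodes the partner subunit Ku70, read 855, 864 and 827 CPM with DMSO and 619, 638 and 602 CPM with IAA. All 3 clones were lower with IAA and the arms did not overlap (-0.45 ± 0.10, adjusted p = 0.00621), with an adjusted p of 0.0688 without clone 15. PRKDC, which encodes DNA-PKcs, read 837, 1201 and 809 CPM with DMSO and 572, 811 and 609.5 CPM with IAA. Each clone was lower with IAA, while clone 13 with IAA overlapped clone 15 with DMSO (-0.51 ± 0.11, adjusted p = 0.00552; 0.0506 without clone 1 and 0.057 without clone 13).

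Of 18877 genes tested, 1042 rose and 831 fell in the MAVS-/- clones, which is 5.52% and 4.4% of those tested. Counts of list members that rose or fell are to be read against these shares. All 3 clones moved in the fitted direction for 1862 of these 1873 genes, and the change was at least 2-fold for 94 of the risers and 140 of the fallers. Without 1 of the clones, 465 to 587 genes rose and 347 to 424 fell, the fewest risers without clone 13 and the fewest fallers without clone 15. On log2(TPM + 1) with limma the calls were 980 up and 385 down, a share of 71.8% up against 55.6% in the count fit. The median change over all genes tested was -0.02.

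CEMIP, which encodes a hyaluronan-degrading protein, had the smallest p of all risers. It read 7.42, 3.94 and 6.15 CPM with DMSO and 138, 60.6 and 99 CPM with IAA, a 16.7-fold rise (4.07 ± 0.23, adjusted p = 1.89e-10). The lowest IAA library, clone 13, lay far above the highest DMSO library. NRP1, a co-receptor for semaphorins and VEGF, read 12.1, 6.06 and 12.7 CPM with DMSO and 55.5, 30.5 and 74.1 CPM with IAA (2.36 ± 0.19, adjusted p = 4.51e-08). IFRD1, a transcriptional co-regulator, read 20.9, 23.1 and 22 CPM with DMSO and 67.6, 97.4 and 72.6 CPM with IAA (1.83 ± 0.13, adjusted p = 1.7e-08). NT5E, the surface enzyme CD73 that makes adenosine, read 31.7, 65.7 and 51.5 CPM with DMSO and 105, 191 and 215 CPM with IAA (1.78 ± 0.14, adjusted p = 4.3e-08). In these 3 genes no IAA library overlapped a DMSO library, and all 4 genes passed whichever clone was left out. SMAD3, a transducer of TGF-beta signals, read 100.0, 113 and 89.97 CPM with DMSO and 189, 257 and 196 CPM with IAA (1.08 ± 0.09, adjusted p = 4.44e-08). PIP4K2C, a phosphoinositide kinase, rose 2.05-fold (1.04 ± 0.08, adjusted p = 4.3e-08), and ZFAND3, a zinc finger protein, 2.04-fold (1.03 ± 0.09, adjusted p = 2.2e-07). The further risers LURAP1L (2.18 ± 0.30), SERPINB8 (1.87 ± 0.26) and CORO2B (1.75 ± 0.21) were called with adjusted p of 5.41e-05, 6.7e-05 and 1.5e-05.

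Some of the largest fitted rises came from genes with almost no counts in DMSO, for which no fold is given. THSD7A had 7, 0 and 2 counts with DMSO and 27, 165 and 47 counts with IAA. TMPRSS11E, a serine protease, had 1, 1 and 1 counts with DMSO and 11, 62 and 20 with IAA, and IL23R, a cytokine receptor chain, 0, 3 and 0 and 47, 9 and 55. Clone 13 was the highest IAA library for THSD7A and TMPRSS11E and the lowest for IL23R, so these risers had no common order of clones. All 3 passed the test (adjusted p = 0.000412, 0.000466 and 0.0123), IL23R not without clone 1 (0.116) or clone 15 (0.125). SLAMF7, a surface receptor of immune cells, had 5, 7 and 7 counts with DMSO and 12, 37 and 27 with IAA, and its adjusted p of 0.0347 rose to 0.0674, 0.269 and 0.154 when clones 1, 13 and 15 were left out.

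Among the genes that fell, CYP24A1, the hydroxylase that inactivates vitamin D, read 431, 325 and 539 CPM with DMSO and 102, 46.1 and 92.8 CPM with IAA, a 5.56-fold fall (-2.48 ± 0.20, adjusted p = 4.3e-08). SUSD2, a membrane protein, read 112, 18.6 and 100.4 CPM with DMSO and 11.2, 3.28 and 8.36 CPM with IAA (-3.19 ± 0.40, adjusted p = 2.36e-05). SPARC, a matrix glycoprotein, read 53, 2.42 and 36.9 CPM with DMSO and 9.42, 0.547 and 2.79 CPM with IAA (-2.85 ± 0.54, adjusted p = 0.00129; 0.0593 without clone 15). Clone 13 had the least SUSD2 and SPARC before treatment, below the IAA level of clone 1 for SPARC, and still lost most of what it had. The same low start of clone 13 was seen in TNFSF18, a TNF family ligand, with 285, 14 and 175 counts with DMSO and 46, 0 and 11 with IAA (-3.66 ± 0.63, adjusted p = 0.000722). KRT13, a keratin, had 266, 36 and 163 counts with DMSO and 45, 16 and 15 with IAA (-2.59 ± 0.69, adjusted p = 0.0179; 0.16 and 0.213 without clones 1 and 15). PRSS33, a serine protease, had 304, 3 and 168 counts with DMSO and 60, 2 and 17 with IAA (-2.60 ± 0.66, adjusted p = 0.0286; 0.296 and 0.325 without these clones). DHRS2, a mitochondrial reductase, read 15.2, 11.4 and 23.3 CPM with DMSO and 2.85, 1.37 and 2.73 CPM with IAA, so that the arms did not overlap (-2.84 ± 0.54, adjusted p = 0.00135). MEIOSIN, a regulator of meiotic entry, fell likewise (-2.14 ± 0.42, adjusted p = 0.00175). LINC02331 (-2.29), IQGAP2 (-2.26) and MAP1LC3B2 (-2.16), the last a near copy of MAP1LC3B whose reads may be split, were called at adjusted p of 0.0326, 0.0339 and 0.0129. Of these, LINC02331 and IQGAP2 passed in no fit that left out a clone (adjusted p from 0.0632 to 0.243) and MAP1LC3B2 not without clone 15 (0.174).

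**Figure D1:**
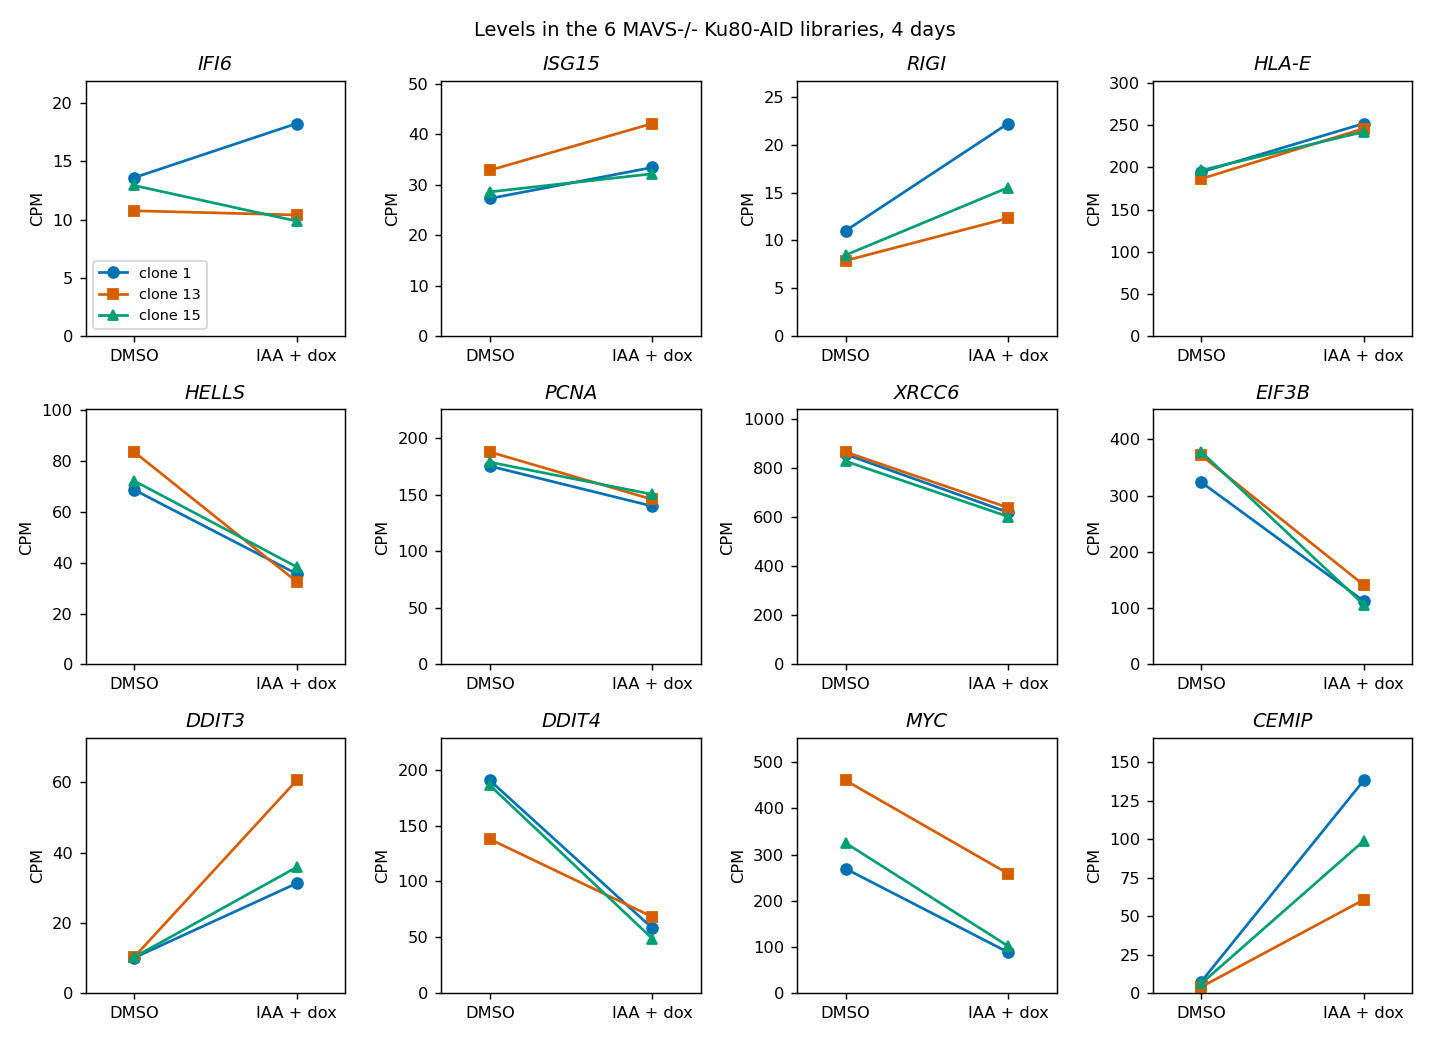
Levels in CPM (vertical axis, from 0) of 12 genes in the 6 MAVS-/- libraries, DMSO on the left and IAA with dox on the right, with 1 line per clone and no averaging. IFI6 lines cross between 9.88 and 18.3 CPM, whereas CEMIP rises in all 3 clones from at most 7.42 to at least 60.6 CPM.

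Interferon-stimulated genes encode antiviral effectors, sensors and signal transducers, and many carry the interferon-stimulated response element, bound by complexes with STAT2 and IRF9. Of 73 such genes tested, 9 rose and 1 fell in the MAVS-/- clones, beside 5.52% and 4.4% of all genes. Their median change was 0.20 against -0.02 over all genes, and 50 of the 73 had a positive fitted change. In the clones with intact MAVS 69 of the same 73 rose and none fell, with a median of 2.37, beside 18.3% of all genes that rose and 15.7% that fell there. The response differed by the interaction test in 58 of the 73, each of them lower without MAVS, beside 3.55% of all genes that were lower and 3.19% that were higher in the knockout. Without clones 1, 13 and 15, 6, 8 and 4 of the 10 calls held.

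Promoter windows of these genes show what letters the members share whether or not they moved. The windows run from 250 bases before to 50 bases after the start and come from RefSeq on GRCh38.p14. The motif searched was GAAANNGAAA on both strands, with overlapping matches allowed, and it is printed in capitals (TTTCNNTTTC where it lies on the other strand). The first 4 genes below had no call in the MAVS-/- clones, the next 3 rose and HERC5 fell. All are written from 5′ to 3′ on the strand of the gene.
IFI6 (chr1:27672261-27672322, minus strand): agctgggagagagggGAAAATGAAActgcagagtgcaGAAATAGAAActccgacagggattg
IFIT1 (chr10:89392492-89392544, plus strand): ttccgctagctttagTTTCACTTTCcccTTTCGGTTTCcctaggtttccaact
ISG15 (chr1:1013369-1013414, plus strand): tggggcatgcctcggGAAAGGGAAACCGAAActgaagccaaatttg
PLSCR1 (chr3:146544662-146544701, minus strand): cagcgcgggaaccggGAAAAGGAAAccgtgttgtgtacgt
PARP12 (chr7:140062952-140062976, minus strand): ccggcccggggccgcTTTCGGTTTC
PARP9 (chr3:122564317-122564356, minus strand): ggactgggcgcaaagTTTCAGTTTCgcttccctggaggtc
SAMD9 (chr7:93118091-93118130, minus strand): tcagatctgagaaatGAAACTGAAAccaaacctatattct
HERC5 (chr4:88456979-88457024, plus strand): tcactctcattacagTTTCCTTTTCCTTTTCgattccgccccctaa
IFI6 also has a copy of the first element further upstream. The motif was found for 35 of the 55 interferon-stimulated genes with a window (63.6%), against 4.38% of all 27305 symbols with one and 3.57% of all 35116 windows. It was found for 4 of the 7 risers with a window and for 30 of the 47 members without a call (63.8%), so the letters did not separate members that moved from members that did not. It was found for none of 48 cell-cycle genes with a window. A match is a description of these letters and no evidence of binding.

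The interferon ligands IFNB1 and IFNL1, and IFNA2 and IFNG, had 0 counts in all 6 libraries, and so had the interferon-induced chemokine CXCL10. IFNA1 and IFNK had at most 2 and 1 counts in any of these libraries. A count of 0 allows up to 3 counts, or 0.189 to 0.236 CPM per library. IFNAR1, a receptor chain for type I interferon, read 54.6, 48.9 and 58.6 CPM with DMSO and 61.8, 61.6 and 72.7 CPM with IAA, with no call (0.27 ± 0.14, adjusted p = 0.256). JAK1, a kinase of interferon signalling, also had no call (0.29 ± 0.12, adjusted p = 0.144). The ligands IFNE, IFNL2 and IFNL3 were among the 11 tested ligands and receptors and had no call. All 11 had a positive fitted change, with a median of 0.27 against -0.02 over all genes. Only IL10RB, a shared chain of the IL-10 and type III interferon receptors, passed, beside 5.52% of all genes that rose. It read 20.1, 17.7 and 20.2 CPM with DMSO and 30.1, 34.6 and 35.1 CPM with IAA (0.78 ± 0.19, adjusted p = 0.00934; 0.106 without clone 13 and 0.0668 without clone 15). The partner chain IFNLR1 changed by 0.42 ± 0.16 without passing (adjusted p = 0.109).

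Among 26 genes of cytosolic RNA sensing 2 rose and none fell (median 0.00), near the 5.52% and 4.4% of all genes. RIGI, the sensor RIG-I that lies upstream of MAVS, read 11, 7.88 and 8.46 CPM with DMSO and 22.2, 12.3 and 15.5 CPM with IAA. It was higher with IAA in every clone, and no IAA library overlapped a DMSO library (0.85 ± 0.21, adjusted p = 0.0095), with adjusted p of 0.102 without clone 1 and 0.0662 without clone 15. With intact MAVS it rose by 3.55 ± 0.21, and the difference of responses was -2.70 ± 0.29 (adjusted p = 3.7e-06). IFIH1, the sensor MDA5, read 10.2, 12.3 and 10.7 CPM with DMSO and 14.4, 7.60 and 14.5 CPM with IAA. Clone 13 went down and the others up, with no call (0.11 ± 0.22, adjusted p = 0.88). IRF3, the factor that MAVS activates, read 85.9, 84 and 84.8 CPM with DMSO and 142, 92.9 and 117 CPM with IAA (0.45 ± 0.13, adjusted p = 0.0303; 0.34 without clone 1 and 0.122 without clone 15). TBK1, its kinase, had 546, 472 and 496 counts with DMSO and 692, 362 and 712 with IAA. Here too clone 13 went down and the others up, with a fitted change of -0.00 (adjusted p = 1.00). Of 9 genes of cytosolic DNA sensing 2 fell, RNASEH2A (-0.56 ± 0.16, adjusted p = 0.0292), a subunit of RNase H2, and BANF1 (-0.40 ± 0.12, adjusted p = 0.0434), which coats chromatin. Neither passed when a clone was left out, whichever it was (adjusted p from 0.0687 to 0.22). STING1, the adaptor of DNA sensing, changed by -0.56 ± 0.26 (adjusted p = 0.219), and ENPP1 by -0.41 ± 0.22 (adjusted p = 0.3).

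Of the interferon transducers, STAT2 read 88.2, 78.7 and 97 CPM with DMSO and 131, 99.6 and 130.3 CPM with IAA (0.45 ± 0.09, adjusted p = 0.00313; 0.0576 without clone 1). All 3 clones were higher with IAA. IRF9 (0.44 ± 0.21, adjusted p = 0.212), its partner, and IRF7 (0.81 ± 0.29, adjusted p = 0.083), which amplifies interferon production, had no call. IRF7 had 131, 75 and 103 counts with DMSO and 268, 146 and 199 with IAA. It was thus higher in every clone with no overlap of arms, and the lack of a call held in 6 of 9 alternative settings.

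The effector IFI6, a membrane protein of the endoplasmic reticulum, read 13.6, 10.8 and 12.9 CPM with DMSO and 18.3, 10.4 and 9.88 CPM with IAA. The arms overlapped and the clones moved both ways (0.01 ± 0.19, adjusted p = 1.00). In the clones with intact MAVS it rose from a mean of 3.67 to 219.8 CPM, and the responses differed by -5.89 ± 0.29 (adjusted p = 1.68e-11). IFIT1, which binds foreign RNA ends, read 13.9, 5.53 and 14.4 CPM with DMSO and 11.6, 3.69 and 12.7 CPM with IAA, lower in each clone but with no call (-0.31 ± 0.19, adjusted p = 0.385; difference -4.38 ± 0.27, adjusted p = 1.02e-09). ISG15, a ubiquitin-like modifier, read 27.3, 32.9 and 28.6 CPM with DMSO and 33.4, 42.1 and 32.2 CPM with IAA, a little higher in each clone, again with no call (0.27 ± 0.21, adjusted p = 0.534; difference -2.75 ± 0.31, adjusted p = 7.39e-06). In each of these 3 genes the arms overlapped. OAS1, an antiviral oligoadenylate synthetase, was low in all libraries (1.37, 0.455 and 0.909 CPM with DMSO, 1.45, 1.23 and 1.15 CPM with IAA; adjusted p = 0.691). Its relative OAS3 read 74.7, 67.1 and 76 CPM with DMSO and 59.7, 52 and 60.8 CPM with IAA, with every IAA library below every DMSO library, and just missed the threshold (-0.34 ± 0.11, adjusted p = 0.058; difference -2.31 ± 0.16, adjusted p = 4.29e-09). PLSCR1, a scramblase, stayed between 21.2 and 22.4 CPM in all 6 libraries (0.01 ± 0.12; difference -2.05 ± 0.17, adjusted p = 1.15e-07). The dsRNA-binding effectors EIF2AK2, which encodes PKR (-0.11 ± 0.11, adjusted p = 0.653), and ADAR, which edits double-stranded RNA (0.05 ± 0.08, adjusted p = 0.811), had no call.

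The interferon-stimulated genes that rose did so by less than 1 log2 unit. SLFN5, a Schlafen protein, read 46.7, 33.3 and 36.5 CPM with DMSO and 65.9, 60.1 and 58.9 CPM with IAA (0.68 ± 0.12, adjusted p = 0.000865). PARP12, an antiviral mono-ADP-ribosyltransferase, read 16, 18.9 and 15.7 CPM with DMSO and 24.8, 37.7 and 23.6 CPM with IAA (0.74 ± 0.15, adjusted p = 0.00192). ZNFX1, a helicase of antiviral defence, read 112, 109 and 115 CPM with DMSO and 154, 144 and 148 CPM with IAA (0.41 ± 0.09, adjusted p = 0.00401). In these 3 the arms did not overlap, and each passed whichever clone was left out. DTX3L, a ubiquitin ligase that works with PARP9, rose by 0.56 ± 0.11 (adjusted p = 0.00197; 0.0616 without clone 15), and SAMD9, a growth and virus restriction factor, by 0.81 ± 0.19 (adjusted p = 0.00822; 0.148 without clone 15). PARP9 itself read 17, 18 and 16.2 CPM with DMSO and 27.7, 17.2 and 26.4 CPM with IAA. Clone 13 was not higher with IAA (0.46 ± 0.14, adjusted p = 0.044; 0.365 and 0.337 without clones 1 and 15). SP100, a nuclear body protein, rose by 0.43 ± 0.13 (adjusted p = 0.0314) and passed in no fit without a clone (0.0541 to 0.331). HERC5, the ligase that attaches ISG15, fell from 12.1, 13.2 and 12.7 to 9.25, 4.72 and 8.42 CPM, most in clone 13 (-0.80 ± 0.23, adjusted p = 0.0281; 0.374 without clone 13 and 0.0812 without clone 15).

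**Figure D2:**
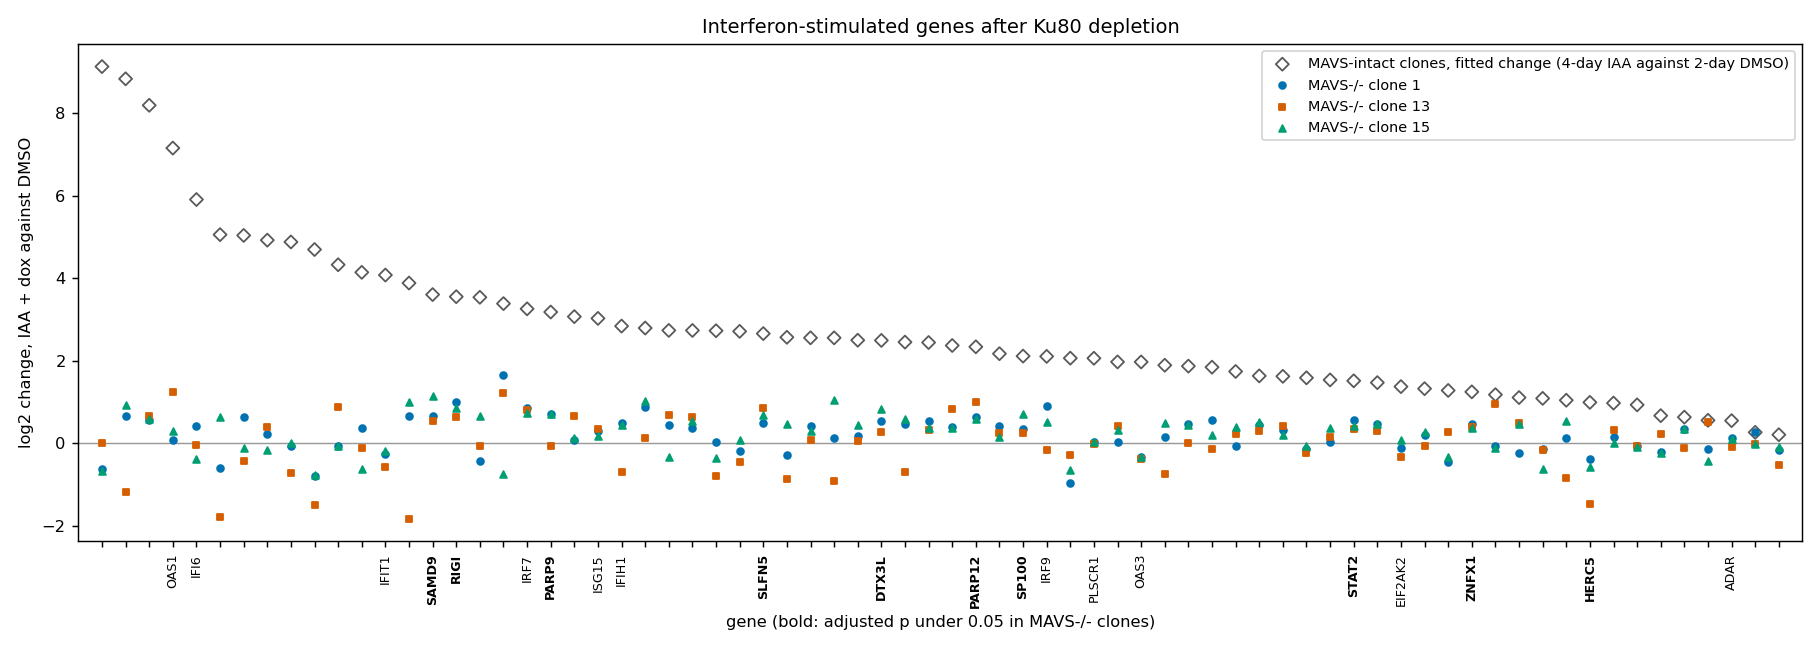
Log2 change (vertical axis) of 72 tested interferon-stimulated genes (1 per place on the horizontal axis, labelled where the gene is described) in each MAVS-/- clone (filled symbols) and, as open diamonds, the fitted change in MAVS-intact clones, by which the genes are ordered. The filled symbols scatter around 0 (median 0.20 over the 73 of the list) while the diamonds have a median of 2.37 over that list.

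Antigen presentation displays cut peptides on class I molecules. Of 21 tested genes 8 rose and none fell (median 0.30), beside 5.52% and 4.4% of all genes. With intact MAVS 15 rose (median 1.15), beside 18.3% of all genes there. HLA-E, a class I molecule read by NK cells, read 194, 186 and 197 CPM with DMSO and 252, 246 and 242 CPM with IAA. Its rise passed whichever clone was left out (0.36 ± 0.08, adjusted p = 0.00386). HLA-C (0.51 ± 0.12, adjusted p = 0.00889; 0.0592 and 0.116 without clones 1 and 13) and HLA-B (0.40 ± 0.12, adjusted p = 0.0387; 0.0747 to 0.213 without 1 clone) did not. These genes are close in sequence and the quantification may split reads between them. TAP2, a peptide transporter subunit, rose by 0.40 ± 0.10 (adjusted p = 0.0145; 0.0533 and 0.183 without clones 1 and 13). PSME2, a proteasome activator subunit, and ERAP1 and ERAP2, which trim peptides, rose by 0.31, 0.56 and 0.78 (adjusted p = 0.0438, 0.0384 and 0.0401). PSME2 (0.118 to 0.204) and ERAP1 (0.11 to 0.205) failed whichever clone was left out, and ERAP2 without clones 1 (0.446) and 15 (0.114). B2M, the light chain, had no call (0.30 ± 0.13, adjusted p = 0.167). Of the 8 calls 2, 3 and 4 held without clones 1, 13 and 15.

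NF-kB drives inflammatory genes. Of 31 of its targets 3 rose and 2 fell (median -0.07), and of 18 cytokines and chemokines 1 rose, beside 5.52% and 4.4% of all genes, so these counts are near the background. SDC4, a syndecan, read 114, 115 and 127 CPM with DMSO and 161, 264 and 178 CPM with IAA (0.73 ± 0.12, adjusted p = 0.000498). CXCL16, a membrane-bound chemokine, read 34.2, 46.6 and 33.6 CPM with DMSO and 50.01, 92.6 and 54.9 CPM with IAA (0.75 ± 0.12, adjusted p = 0.000223). Clone 13 was highest for both with IAA, and both passed without it. NFKBIB, an NF-kB inhibitor, and EFNA1, an ephrin, rose by 0.77 ± 0.18 and 0.72 ± 0.18 (adjusted p = 0.00751 and 0.00918). NFKBIB did not pass without clone 13 (0.145), nor EFNA1 without clone 13 (0.0991) or 15 (0.0602). NFKBIA, the feedback inhibitor, fell by 0.57 ± 0.18 (adjusted p = 0.0422; 0.0616 to 0.333 without 1 clone), and PLAU, a protease, changed by -0.44 ± 0.11 (adjusted p = 0.0116; 0.122 and 0.0893 without clones 13 and 15). IL15, LIF and GDF15, the other cytokines of smallest p, had no call (adjusted p = 0.0789, 0.111 and 0.162).

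Genes of DNA replication and mitosis were among those that fell. None of 56 cell-cycle and E2F target genes rose and 20 fell, beside 4.4% of all genes, with a median of -0.39, and 47 of the 56 were lower with IAA in all 3 clones. The medians were similar in clones 1 (-0.43), 13 (-0.44) and 15 (-0.34). With intact MAVS 55 of 56 fell (median -1.63), and 51 of the 56 differed between the responses, each less reduced without MAVS. Calls that held without clones 1, 13 and 15 numbered 7, 9 and 10 of the 20, and limma on log2(TPM + 1) called 7. E2F factors drive the replication genes among them, and the E2F-like letters TTTCCCGC or TTTGGCGC were searched in the same windows on both strands with overlaps allowed. They were found for 17 of 48 cell-cycle genes with a window (35.4%), against 2.75% of all symbols with one, for 7 of the 16 that fell (43.8%) and for 10 of 32 without a call (31.2%). The windows of 4 genes that fell are shown, with the motif in capitals (GCGGGAAA or GCGCCAAA where it lies on the other strand).
HELLS (chr10:94545697-94545734, plus strand): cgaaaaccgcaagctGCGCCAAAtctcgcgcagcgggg
MCM7 (chr7:100101562-100101599, minus strand): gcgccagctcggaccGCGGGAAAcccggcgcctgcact
PCNA (chr20:5126659-5126696, minus strand): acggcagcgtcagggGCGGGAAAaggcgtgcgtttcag
UHRF1 (chr19:4909472-4909500, plus strand): aaatgccgagttttcGCGGGAAAaaaatc
HELLS, a chromatin remodeller needed for DNA methylation, read 68.6, 83.5 and 72.1 CPM with DMSO and 35.6, 32.6 and 38.4 CPM with IAA. Clone 13 fell from the highest to the lowest level and the arms did not overlap (-1.07 ± 0.14, adjusted p = 3.07e-05). MCM7, a subunit of the replicative helicase, read 383, 459.7 and 418 CPM with DMSO and 242, 311 and 243 CPM with IAA (-0.67 ± 0.12, adjusted p = 0.000802). LMNB1, the lamin that is lost in senescent cells, read 160.3, 169 and 168 CPM with DMSO and 108, 92.2 and 108 CPM with IAA (-0.69 ± 0.12, adjusted p = 0.000774). These 3, and the thymidine kinase TK1 (-0.67 ± 0.13, adjusted p = 0.00167) and the helicase subunit MCM2 (-0.61 ± 0.12, adjusted p = 0.00177), passed whichever clone was left out.

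PCNA, the replication clamp, read 175, 188 and 179 CPM with DMSO and 139.8, 146 and 150.2 CPM with IAA (-0.31 ± 0.09, adjusted p = 0.0223; 0.0903 to 0.146 without 1 clone). No IAA library reached the DMSO range. UHRF1, which guides DNA methylation after replication, changed by -0.34 ± 0.11 (adjusted p = 0.0439; 0.0502 to 0.394 without 1 clone), and the mitotic kinase AURKA by -0.40 ± 0.12 (adjusted p = 0.0393; 0.105 to 0.249 without 1 clone). CENPF, a kinetochore protein, read 243, 226 and 212 CPM with DMSO and 174, 66.1 and 165 CPM with IAA. The fall was largest in clone 13 (-0.86 ± 0.27, adjusted p = 0.0453), and the adjusted p was 0.0698, 0.559 and 0.0542 without clones 1, 13 and 15. The genes with the smallest p for a weaker response than with intact MAVS were AURKA (1.66 ± 0.17, adjusted p = 3.04e-06), GTSE1 (1.77 ± 0.20, 5.48e-06), HMGN2 (1.35 ± 0.16, 9.16e-06), CDCA3 (2.03 ± 0.24, 9.16e-06), PCNA (1.04 ± 0.12, 1.19e-05) and UHRF1 (1.28 ± 0.15, 1.4e-05). Of these GTSE1, HMGN2 and CDCA3, which act in mitosis or on chromatin, had no call in the MAVS-/- clones themselves (adjusted p = 0.204, 0.179 and 0.0881).

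Some repair genes fell as well. Of 26 genes of homologous recombination and the Fanconi pathway 4 fell and none rose (median -0.25), beside 4.4% of all genes that fell. FANCD2, which marks stalled forks, read 63.4, 68.2 and 85.4 CPM with DMSO and 34.8, 31.5 and 57.1 CPM with IAA, with all IAA libraries below all DMSO libraries (-0.85 ± 0.14, adjusted p = 0.000291). DNA2 (-0.82 ± 0.25), BLM (-0.57 ± 0.18) and BRIP1 (-0.49 ± 0.16), a nuclease and helicases, were called at adjusted p of 0.0379, 0.0455 and 0.0476 and lost the call without clone 13 (0.393, 0.381 and 0.449) and without clone 1 (0.164, 0.112 and 0.171), and BLM also without clone 15 (0.106). Among 19 end-joining genes, DCLRE1C, which encodes the nuclease Artemis, read 18, 17.7 and 16.4 CPM with DMSO and 25.1, 26.4 and 27.8 CPM with IAA (0.61 ± 0.13, adjusted p = 0.00291; 0.0539 without clone 15). It was the only riser of that list, in which XRCC6 and PRKDC fell. XRCC4, the ligase cofactor, and LIG4, the ligase, had no call (-0.55 ± 0.19 and 0.25 ± 0.18, adjusted p = 0.0792 and 0.503). Of 16 telomere genes 3 fell and 1 rose, beside 4.4% and 5.52% of all genes. TERT, the telomerase catalytic subunit, had 40, 33 and 45 counts with DMSO and 12, 14 and 5 with IAA (-2.12 ± 0.58, adjusted p = 0.0217; 0.085 and 0.207 without clones 1 and 15). NHP2, a telomerase RNA-binding protein, and TERF2, a shelterin subunit, fell by 0.55 ± 0.13 and 0.31 ± 0.09 (adjusted p = 0.00787 and 0.0367), and CTC1 of the CST complex rose by 0.31 ± 0.09 (adjusted p = 0.0224). NHP2 lost its call without clones 1 (0.0815) and 15 (0.143), CTC1 without clones 1 (0.0994) and 13 (0.214), and TERF2 whichever clone was left out (0.127 to 0.224).

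Of 56 p53 targets 13 rose and 5 fell (median 0.24), beside 5.52% and 4.4% of all genes, and 12, 10 and 10 of these 18 calls held without clones 1, 13 and 15. The medians were 0.31, -0.06 and 0.23 in clones 1, 13 and 15, so clone 13 did not share the shift. TIGAR, which limits glycolytic flux, read 23.5, 24.1 and 29.3 CPM with DMSO and 41.2, 45 and 55 CPM with IAA (0.87 ± 0.12, adjusted p = 7.6e-05). GADD45A, a growth arrest protein, read 42.5, 60.3 and 49.6 CPM with DMSO and 70.2, 104 and 73.6 CPM with IAA (0.70 ± 0.11, adjusted p = 0.000355). TGFA, a ligand of the EGF receptor, rose by 0.68 ± 0.11 (adjusted p = 0.000355). Each of the 3 was higher in every clone with no overlap of arms and passed whichever clone was left out. CDKN1A, the inhibitor p21, read 294, 298 and 372 CPM with DMSO and 445, 423 and 562 CPM with IAA. It was higher in every clone too, with no overlap of arms, and did not pass (0.56 ± 0.20, adjusted p = 0.0725). The lack of a call for CDKN1A held in 5 of 9 alternative settings. MDM2, the p53 ligase, did not pass either (0.27 ± 0.10, adjusted p = 0.12). Of the death receptor genes TNFRSF10A rose by 0.57 ± 0.12 (adjusted p = 0.00409; 0.135 without clone 13) and TNFRSF10B by 0.36 ± 0.09 (adjusted p = 0.0157; 0.0602 to 0.141 without 1 clone). KITLG, the ligand of KIT, fell from 611, 870.2 and 503 to 369, 222 and 282 CPM (-1.17 ± 0.21, adjusted p = 0.00101). Of 23 cell death genes 3 rose, among them RIPK1 (0.55 ± 0.11, adjusted p = 0.00181), a kinase of necroptosis, and BCL2L11 (0.56 ± 0.13, adjusted p = 0.00662), which encodes BIM. RIPK1 passed whichever clone was left out, and BCL2L11 not without clone 1 (0.0801) or 15 (0.0747).

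The integrated stress response shuts down translation initiation and raises ATF4, whose targets include DDIT3 and genes of amino acid synthesis. Of 35 tested genes 5 rose and 8 fell, beside 5.52% and 4.4% of all genes. DDIT3, the death-linked factor CHOP, read 10.03, 10.2 and 10.2 CPM with DMSO and 31.2, 60.6 and 35.8 CPM with IAA. The DMSO libraries were almost equal and every clone was higher with IAA, clone 13 most (2.00 ± 0.18, adjusted p = 3.84e-07). With intact MAVS it rose by 2.23 ± 0.19, and the difference of responses did not pass the test (-0.23 ± 0.26, adjusted p = 0.71; 1.06, adjusted p = 0.00362, with DMSO at 1 day as the intact control). PPP1R15A, the phosphatase subunit GADD34 that restores translation, read 47, 45.8 and 43.1 CPM with DMSO and 84.8, 199 and 79.9 CPM with IAA (1.28 ± 0.20, adjusted p = 0.000181). TRIB3, a pseudokinase, read 29.7, 32.3 and 27 CPM with DMSO and 33.3, 104 and 36.2 CPM with IAA (0.76 ± 0.20, adjusted p = 0.0153; 0.452 without clone 13). SESN2, a sestrin induced by stress, rose by 0.84 ± 0.18 (adjusted p = 0.00307; 0.121 without clone 13), and CEBPG, an ATF4 partner, by 0.49 ± 0.16 (adjusted p = 0.0454; 0.0706 to 0.415 without 1 clone). In each of the 5 risers clone 13 rose most. ATF4 itself read 344, 302 and 315 CPM with DMSO and 338, 576 and 332 CPM with IAA, which is a rise in clone 13 alone and no call (0.33 ± 0.14, adjusted p = 0.156).

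The members that fell were mostly enzymes of serine, asparagine and one-carbon metabolism. PHGDH, the first enzyme of serine synthesis, read 121, 125 and 112 CPM with DMSO and 63.8, 47.8 and 52.9 CPM with IAA (-1.13 ± 0.19, adjusted p = 0.000415; difference from intact MAVS 1.64 ± 0.28, adjusted p = 0.000695). PSAT1, the next enzyme of that pathway, read 126, 118 and 109.8 CPM with DMSO and 51.3, 68.2 and 51.1 CPM with IAA (-1.06 ± 0.18, adjusted p = 0.000481). MTHFD2, a mitochondrial folate enzyme, read 277, 288 and 253 CPM with DMSO and 122, 200.2 and 115 CPM with IAA (-0.95 ± 0.13, adjusted p = 7.6e-05). In all 3 the IAA libraries lay below the DMSO libraries. ASNS, asparagine synthetase, fell as well (-1.01 ± 0.16, adjusted p = 0.000256). DDIT4, an inhibitor of mTORC1 that stress and hypoxia induce, read 190.4, 138 and 186 CPM with DMSO and 58, 68.2 and 48.7 CPM with IAA, the largest fall called in the list (-1.56 ± 0.20, adjusted p = 3.46e-05). These 5 passed whichever clone was left out. SLC7A5, an amino acid transporter, read 449, 547 and 471 CPM with DMSO and 209, 649.6 and 224 CPM with IAA. Clones 1 and 15 were lower with IAA and clone 13 was higher (-0.65 ± 0.21, adjusted p = 0.0491; 0.439 and 0.455 without clones 1 and 15). SHMT2 (-0.46 ± 0.14, adjusted p = 0.0329) and CTH (-0.79 ± 0.22, adjusted p = 0.0224) had calls that also ended without clone 1 (0.242 and 0.144) or 15 (0.24 and 0.176).

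The median over the 35 genes was -0.29 in clone 1, 0.42 in clone 13 and -0.29 in clone 15, so clone 13 went the other way from the rest. The unfolded protein response list shared this order, with medians of -0.02, 0.43 and -0.17, and 4 of its 18 genes rose, beside 5.52% of all genes. ERN1, the sensor IRE1, read 29.5, 34.9 and 31.1 CPM with DMSO and 42.3, 58.1 and 45.1 CPM with IAA (0.60 ± 0.12, adjusted p = 0.00228) and passed whichever clone was left out. ATF6, a further sensor, rose by 0.53 ± 0.13 (adjusted p = 0.00884; 0.113 without clone 13). The chaperone genes DNAJB9 (0.61 ± 0.16, adjusted p = 0.0154) and DNAJB11 (0.46 ± 0.12, adjusted p = 0.0158) lost the call without clone 13 (0.302 and 0.229) and without clone 15 (0.106 and 0.0678). Of 20 immediate early genes only JUN, an AP-1 subunit, was called, with 18.6, 27.2 and 18.7 CPM with DMSO and 37.8, 118 and 35.3 CPM with IAA (1.36 ± 0.21, adjusted p = 0.000198). Every clone rose and clone 13 most, and the rise was smaller than with intact MAVS, where 14 of the 20 rose (difference -1.62 ± 0.30, adjusted p = 0.00178; 0.60, adjusted p = 0.134, with DMSO at 1 day as the intact control, and 0.103 without the clone block). DUSP5, a phosphatase that ERK signalling induces, had no call (0.43 ± 0.16, adjusted p = 0.109).

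**Figure D3:**
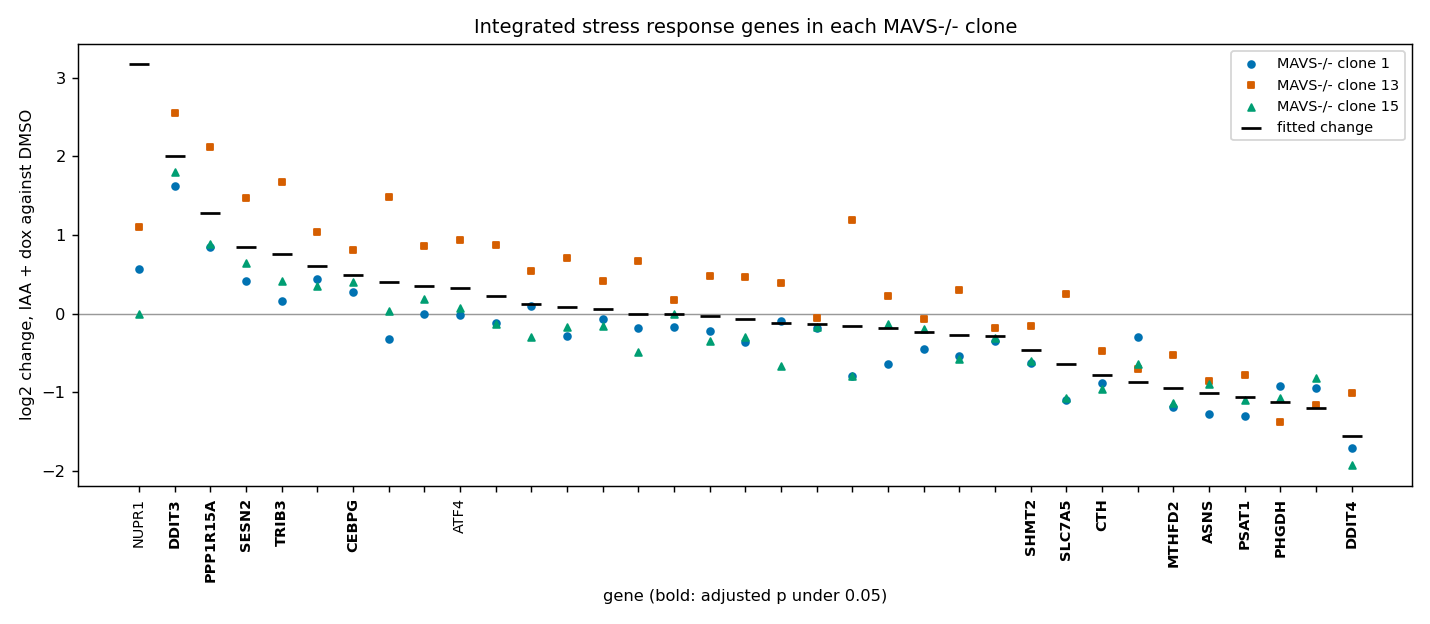
Log2 change (vertical axis) of the 35 tested integrated stress response genes (1 per place on the horizontal axis, labelled where the gene is described) in each MAVS-/- clone, with the fitted change as a bar. Clone 13 (squares) lies above the other clones for most genes, with a median of 0.42 against -0.29 and -0.29. The fitted change of NUPR1 lies outside the clone points, which are log2 CPM differences with a prior count of 2.

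MYC, a driver of growth and ribosome production, read 269, 461 and 325 CPM with DMSO and 88.2, 259 and 102 CPM with IAA. Clone 13 started highest and stayed highest, and no IAA library reached the lowest DMSO library (-1.37 ± 0.13, adjusted p = 5.73e-07). The fall was larger than with intact MAVS (-0.52 ± 0.13 there, difference -0.85 ± 0.18, adjusted p = 0.00456), and this difference did not pass without the clone block (0.241), with only the compared libraries (0.0902) or without clone 15 (0.0504). MXD1, which opposes MYC at shared sites, rose by 0.67 ± 0.19 (adjusted p = 0.0267; 0.0531 to 0.354 without 1 clone), and no other of the 12 tested genes of this network was called.

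Ribosomal proteins make up the ribosome with its RNA. Of 40 cytosolic ribosomal protein genes 14 fell and none rose (median -0.29), beside 4.4% of all genes that fell, with medians of -0.38, -0.07 and -0.43 in clones 1, 13 and 15. Calls that held without these clones numbered 5, 11 and 3 of 14, and fallers numbered 5 with limma on log2(TPM + 1) and 4 in the 6 libraries alone. RPL3 read 2479.5, 2846 and 2480.5 CPM with DMSO and 1712, 2118 and 1616 CPM with IAA (-0.53 ± 0.07, adjusted p = 6.67e-05). RPS24 read 605, 732 and 600.2 CPM with DMSO and 404, 539 and 451 CPM with IAA (-0.48 ± 0.07, adjusted p = 0.000198). Both kept their call whichever clone was left out and had no overlap of arms, and RPS3 (-0.47 ± 0.09, adjusted p = 0.00127) lost it without clone 15 (0.0583). Genes of this family have many processed pseudogenes, so reads may be shared. Of 36 ribosome biogenesis genes 7 fell and 1 rose (median -0.26), with 6, 8 and 4 of the 8 calls held without clones 1, 13 and 15. Their medians were -0.39, 0.04 and -0.36 in clones 1, 13 and 15, so clone 13 did not share the shift. FBL, the methyltransferase of ribosomal RNA, read 247, 339.9 and 271 CPM with DMSO and 129, 227 and 127 CPM with IAA (-0.87 ± 0.12, adjusted p = 6.67e-05). POLR1B, a subunit of RNA polymerase I, fell by 0.58 ± 0.10 (adjusted p = 0.000338), and GNL3, a nucleolar GTPase, by 0.73 ± 0.15 (adjusted p = 0.00281). The nucleolar proteins NPM1 (-0.71 ± 0.17, adjusted p = 0.00691) and NCL (-0.56 ± 0.12, adjusted p = 0.00266) lost the call without clone 15 (0.0774 and 0.0736). DDX56, a nucleolar helicase, was the only riser (0.41 ± 0.08, adjusted p = 0.00278).

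EIF3B, a scaffold subunit of the initiation factor eIF3, read 324, 371 and 377 CPM with DMSO and 113, 141 and 106 CPM with IAA. Every IAA library was below every DMSO library, by 2.99-fold in the fit (-1.58 ± 0.13, adjusted p = 4.3e-08), and the fall was smaller than with intact MAVS (-2.79 ± 0.13 there, difference 1.21 ± 0.18, adjusted p = 0.000148). Of 13 eIF3 genes 4 fell (median -0.23), beside 4.4% of all genes. EIF3E (-0.50), EIF3A (-0.49) and EIF3L (-0.41) had smaller falls (adjusted p = 0.0204, 0.0261 and 0.00478), EIF3L without a call when clone 15 was left out (0.061), and EIF3E (0.0504 to 0.221) and EIF3A (0.0822 to 0.178) whichever clone was left out. MRPS35, of the small mitochondrial ribosome subunit, read 55.1, 53.1 and 55.5 CPM with DMSO and 23, 23.4 and 24.8 CPM with IAA, nearly the same fall in each clone (-1.20 ± 0.13, adjusted p = 3.22e-06). Of 30 mitochondrial ribosomal protein genes 6 fell (median -0.22), among them MRPL16 (-0.61 ± 0.12, adjusted p = 0.0015) and MRPL11 (-0.56 ± 0.13, adjusted p = 0.00541; 0.0708 without clone 1). None of the 15 mitochondrially encoded genes was called by edgeR, with 1 at an unadjusted p under 0.05 (DESeq2 called 1 lower and limma 0), whereas 13 rose with intact MAVS. The smallest p among them was that of the ribosomal RNA MT-RNR2 (-0.35 ± 0.11, adjusted p = 0.0509).

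Biosynthesis genes fell in several lists, to be read beside the 4.4% of all genes that fell. Of 18 nucleotide synthesis genes 8 fell and none rose (median -0.35), and all 18 had a fitted change below 0. PAICS, a purine enzyme, read 399, 427 and 369 CPM with DMSO and 213, 272 and 212 CPM with IAA (-0.78 ± 0.11, adjusted p = 6.55e-05). CAD, which starts pyrimidine synthesis, read 212, 237 and 227 CPM with DMSO and 134, 152 and 126 CPM with IAA (-0.72 ± 0.11, adjusted p = 0.000155). Both passed whichever clone was left out and had no overlap of arms, and 3, 5 and 3 of the 8 calls held without clones 1, 13 and 15. Of 19 hypoxia and glycolysis genes 10 fell and none rose (median -0.39), with 4 calls held in each of these fits. LDHA, lactate dehydrogenase, read 969.8, 789 and 891 CPM with DMSO and 602, 616 and 655 CPM with IAA (-0.50 ± 0.09, adjusted p = 0.00135). PFKFB4, a regulator of glycolysis, fell by 0.86 ± 0.16 (adjusted p = 0.000979) and PDK1, which holds back pyruvate oxidation, by 1.13 ± 0.25 (adjusted p = 0.00546; 0.113 without clone 13). HK2, a hexokinase, read 66.9, 77.8 and 68.3 CPM with DMSO and 32.7, 77 and 41.3 CPM with IAA, with almost no change in clone 13 (-0.59 ± 0.14, adjusted p = 0.00713; 0.186 and 0.113 without clones 1 and 15). Of 18 reference genes 1 rose and 7 fell (1 with limma on log2(TPM + 1)), GAPDH among them (-0.35 ± 0.08, adjusted p = 0.00457; 0.0793 and 0.098 without clones 1 and 15), and so did TFRC, the transferrin receptor (-0.85 ± 0.13, adjusted p = 0.000221). A share of fallers above 4.4% was thus also seen in the reference list in the main fit. That list shares RPLP0 with the ribosomal protein list and PGK1 with the hypoxia and glycolysis list. Of its 8 calls 2 held with limma, 2 in the 6 libraries alone, and 3, 5 and 2 without clones 1, 13 and 15.

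Of 22 sterol genes 3 fell and none rose, beside 4.4% and 5.52% of all genes. Their median was -0.07, and all 3 calls held whichever clone was left out. Among them INSIG1, the sterol brake, and SQLE, squalene epoxidase, fell by 0.80 ± 0.16 and 0.72 ± 0.13 (adjusted p = 0.00189 and 0.000699). Auxin is an indole, and indoles can bind the aryl hydrocarbon receptor, so its targets were examined. AHRR, the receptor's repressor, read 38, 33 and 30.5 CPM with DMSO and 84.5, 55.6 and 66.5 CPM with IAA, a rise in each clone (1.01 ± 0.13, adjusted p = 3.99e-05). TIPARP, a feedback ADP-ribosyltransferase, read 59.8, 63.7 and 48.6 CPM with DMSO and 88.1, 115 and 92.3 CPM with IAA (0.78 ± 0.14, adjusted p = 0.000623). CYP1A1, the classic target, read 3.71, 2.42 and 4.33 CPM with DMSO and 4.01, 2.19 and 4.79 CPM with IAA, with no call (0.04 ± 0.43, adjusted p = 0.993). CYP1B1 had no call either (0.83 ± 0.31, adjusted p = 0.0986), and NQO1, a quinone reductase, fell by 0.40 ± 0.09 (adjusted p = 0.00562; 0.0862 and 0.0595 without clones 13 and 15). Of the 9 genes tested 2 rose and 1 fell, and the part of IAA itself in these results was not tested.

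RNA from silenced repeats is a source of double-stranded RNA, and 20 genes that silence retroelements were examined. Of these 8 fell and none rose (median -0.20), beside 4.4% of all genes that fell, and 17 were lower with IAA in all 3 clones. Besides HELLS, UHRF1 and the methyltransferase DNMT1 (-0.33 ± 0.08, adjusted p = 0.0135), which are also in the cell-cycle list, they were the heterochromatin proteins CBX5 (-0.47 ± 0.10, adjusted p = 0.00365), CBX3 (-0.58 ± 0.13, adjusted p = 0.00479) and CBX1 (-0.45 ± 0.13, adjusted p = 0.0348). The methyltransferases DNMT3B (-0.53 ± 0.13, adjusted p = 0.008) and EHMT2 (-0.31 ± 0.09, adjusted p = 0.0302) completed them. CBX5 read 266, 198 and 232 CPM with DMSO and 202, 119 and 193 CPM with IAA, lowest in clone 13 in both arms. Without clone 13 only HELLS kept its call (adjusted p = 0.103 for CBX5, 0.118 for CBX3, 0.0836 for DNMT3B), against 5 and 4 of 8 without clones 1 and 15. CBX1 (0.0752 to 0.283) and DNMT1 (0.0595 to 0.122) passed in none of these fits, and EHMT2 neither without clone 13 (0.308) nor 15 (0.155). None of 15 genes of double-stranded RNA binders was called by edgeR, with 5 at an unadjusted p under 0.05, whereas DESeq2 called 4 as lower and limma 0. ILF2, a subunit of a complex that binds such RNA, changed by -0.34 ± 0.12 (adjusted p = 0.0677), and DHX9, an RNA helicase that unwinds it, by -0.29 ± 0.11 (adjusted p = 0.104).

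Among epithelial and filament genes, clone 13 again parted from the others. CDH1, E-cadherin, read 71.6, 101 and 75.4 CPM with DMSO and 108, 179 and 128 CPM with IAA. It rose in each clone and most in clone 13, which started highest (0.73 ± 0.08, adjusted p = 6.03e-06). No other of the 9 tested colon epithelial markers was called. Their median change was -0.06, and 3 of the 9 had a positive fitted change. Of 13 keratin and filament genes 4 fell and none rose, beside 4.4% and 5.52% of all genes. LMNB1, which is also in the cell-cycle list, was among the fallers. The medians over the 13 genes were -0.62, 0.15 and -0.63 in clones 1, 13 and 15. Of the 4 calls 2 held in each fit that left out a clone. NES, the neural filament nestin, read 33.1, 28 and 34.3 CPM with DMSO and 11.8, 8.96 and 11.6 CPM with IAA (-1.56 ± 0.26, adjusted p = 0.00034). VIM, the mesenchymal filament vimentin, read 11.7, 2.05 and 8.81 CPM with DMSO and 5.70, 0.342 and 3.27 CPM with IAA (-1.42 ± 0.40, adjusted p = 0.0243; 0.0637 to 0.134 without 1 clone). Clone 13 had the least of it in both arms.

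**Figure D4:**
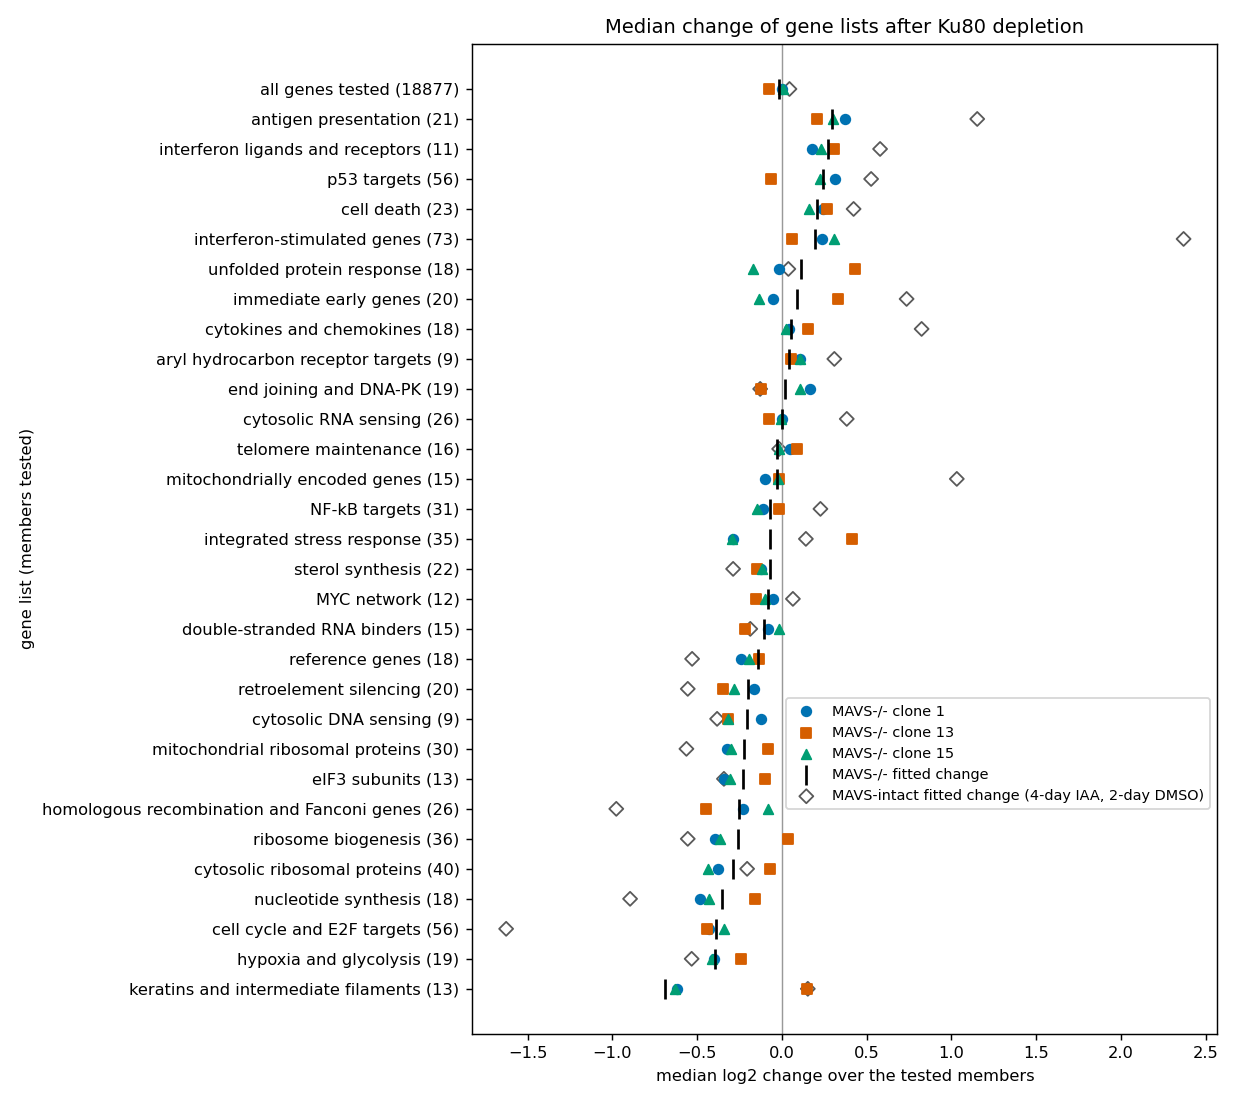
Median log2 change (horizontal axis) of each gene list, with the number of tested members in brackets, in MAVS-/- clones 1, 13 and 15, in the MAVS-/- fit (bar) and in the MAVS-intact fit (open diamond). Clone 13 parts from the others for lists such as stress, unfolded protein, filament, p53 and ribosome biogenesis. The diamonds lie farther from 0 than the bars for interferon-stimulated genes (2.37 against 0.20) and the cell cycle (-1.63 against -0.39).

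Set beside the clones with intact MAVS, most calls of the MAVS-/- clones had the same sign there. Of the 1042 risers 893 also rose with intact MAVS, which is 85.7% of them and 25.9% of the 3447 risers there. Of the 831 fallers 669 also fell, 80.5% of them and 22.6% of the 2957 there. Opposite calls were 1 riser and 13 fallers. The difference between the responses was called for 1272 genes, 602 higher and 670 lower without MAVS. Leading the lower side were IFI6, IFIT1, OAS3, PARP9 (-2.72 ± 0.20, adjusted p = 1.57e-08), DTX3L (-1.94 ± 0.16, adjusted p = 6.63e-08) and PLSCR1, all interferon-stimulated. For CEMIP the rise was smaller without MAVS (-2.09 ± 0.36, adjusted p = 0.000991; 0.0847 with limma on log2(TPM + 1)), and for XRCC6 the fall was smaller (0.90 ± 0.15, adjusted p = 0.00053). The intact clones had DMSO for 2 days and the knockout clones DMSO for 4 days, the clones differ, and DMSO levels differed as well (IFI6 had a mean of 12.4 CPM in knockout and 3.67 CPM in intact clones, ISG15 29.6 and 9.05 CPM). With DMSO at 1 day as the intact control, which had libraries of intact clones 1 and 9 only, 6878 genes were called. With only the compared libraries in the fit the number was 525. The counts of interferon-stimulated and cell-cycle genes with a difference stayed at 46 to 61 and 40 to 52 over all alternatives run.

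**Figure D5:**
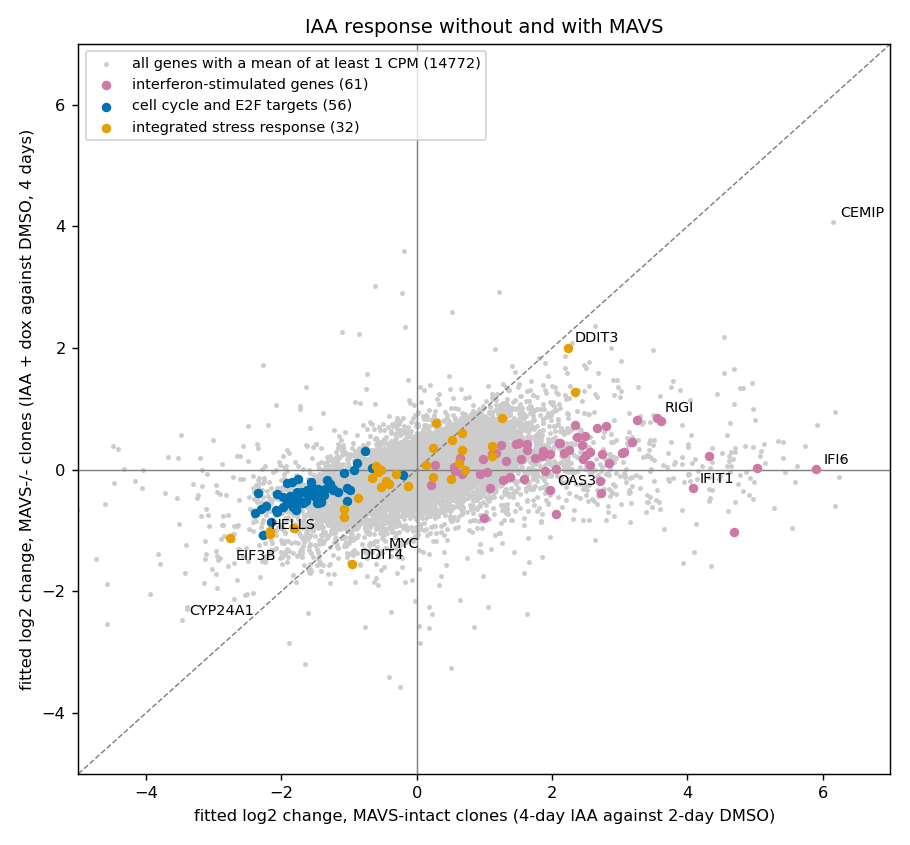
Fitted log2 change in MAVS-/- clones (vertical) against MAVS-intact clones (horizontal) for 14772 genes with a mean of at least 1 CPM, of which 25 lie outside the axes, with the line of equal change dashed. Interferon-stimulated genes spread along the horizontal axis near 0 on the vertical one, and CEMIP, DDIT3 and EIF3B changed in both.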

How the data were processed

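RNA sequencing of Ku80-AID, MAVS-/- HCT116 clones 1, 13 and 15 gave 6 poly(A) libraries, 1 per clone and treatment. The authors deposited estimated counts per gene and TPM. The TPM are as deposited already scaled for transcript length and library size, whereas the totals of the estimated counts differed between libraries (9.53 to 45.7 M over the 32 degron libraries). Per the submitters' processing notes Salmon 1.10.2, kallisto 0.50.0, DESeq2 and GRCh38 were used, with no role named for each. The sources used here do not give the annotation release or the strand setting. RNA was poly(A)-selected per the labels' protocols.

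The estimated counts were rounded and the 32 degron libraries fitted together with edgeR 4.0.16 (R 4.3.3): filterByExpr by group kept 18877 of 61228 genes, scaling was TMM (factors 0.904 to 1.1), and the model had a term per clone and per treatment group (16 coefficients, leaving 16 residual degrees of freedom). The biological coefficient of variation was 19.5%. Quasi-likelihood p-values were adjusted by Benjamini-Hochberg over all genes tested. The knockout comparison is IAA with dox against DMSO at 4 days. The difference of responses subtracts the 4-day IAA term of the intact clones, taken against their DMSO at 2 days. Arms of a clone are paired because they come from the same clone, and after removal of group means same-clone libraries correlated across genes with r of 0.213, 0.273 and 0.0621. Each clone is 1 culture per arm. The p-values rest on the spread left after the clone and treatment terms, shared over all 32 libraries. These include libraries with a CDK inhibitor, and the knockout libraries alone leave 2 residual degrees of freedom. Log2 CPM per clone used a prior count of 2.

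Alternatives were the test of DESeq2 1.42.0, limma 3.58.1 run on log2(TPM + 1), relative log expression factors, all genes with a count in place of the filter, no clone block, only the compared libraries, DMSO at 1 day as intact control, and leaving out each clone. The fit was tested on simulated data first.

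The members and gene lists were chosen with earlier results of these data known. Genes were named by rule: those that check the labels, the 12 largest changes per direction and the 10 smallest p among called genes with a mean of at least 1 CPM and 1 direction in all clones, up to 4 per list and 6 per direction for the difference. Some genes that meet the rule are not reported here. Others that are named were chosen after their values were seen. Promoter sequences are RefSeq's on GRCh38.p14, matched by symbol.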

Additional observations from a re-analysis of the deposited data

Results flagged for a closer look

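The responses to IAA and dox were compared between MAVS-/- and MAVS-intact clones by an interaction term in the edgeR fit, and 1272 genes differed at a Benjamini-Hochberg adjusted p under 0.05. The values below are the log2 response of the MAVS-/- clones minus that of the intact clones, for named genes whose difference passed.

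Among interferon-stimulated genes the responses were lower without MAVS, by -5.89 for IFI6, -4.38 for IFIT1, -2.75 for ISG15, -2.72 for PARP9, -2.70 for the sensor gene RIGI, -2.31 for OAS3, -2.05 for PLSCR1 and -1.94 for DTX3L. In the cell cycle the responses were higher, that is less negative, without MAVS. The differences were 2.03 for CDCA3, 1.77 for GTSE1, 1.66 for AURKA, 1.35 for HMGN2, 1.28 for UHRF1 and 1.04 for PCNA. The same direction was found for PHGDH (1.64), EIF3B (1.21) and XRCC6 (0.90). CEMIP differed by -2.09 and JUN by -1.62, both rising less without MAVS, and MYC by -0.85, falling more. The clones and the duration of DMSO also differ between the 2 sets, and these cannot be told apart from MAVS.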

How the results depend on the processing

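With 3 clones, leaving out 1 of them moved most counts. Called genes went from 1873 to between 877 and 1011, risers from 1042 to between 465 and 587, fallers from 831 to between 347 and 424, interferon-stimulated risers from 9 to between 4 (without clone 15) and 9, cell-cycle fallers from 20 to between 7 and 10, and differences of responses from 1272 to between 767 and 985. These fits hold fewer libraries. DESeq2 called 1261 fallers, and limma on log2(TPM + 1) called 385 fallers and 7 cell-cycle fallers. Fallers among ribosomal protein genes went from 14 to 23 with DESeq2, 5 with limma and 4 in the 6 libraries alone. The difference of responses was called for 525 genes with only the compared libraries and the replicate block, and for 6878 with DMSO at 1 day as the intact control. With that control, which had intact clones 1 and 9 only, the differences of DDIT3 and JUN changed sign, to 1.06 (adjusted p = 0.00362) and 0.60 (adjusted p = 0.134). The cause was not tested in these cases.

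The clones pair the arms. Without the replicate block 1488 genes were called, 893 up and 595 down, with 915 differences, and 28 of the 138 called genes given by name lost their call. In the 6 libraries alone with the replicate block 2262 genes were called. Of these 138 genes, 4 lost the call with relative log expression factors, 13 with no filter, 41 with limma, 17 in the 6 libraries alone and 47, 47 and 57 without clones 1, 13 and 15. None of their changes reversed. At 12.7 to 15.9 M counts a library, genes near 0.236 CPM are at the floor of 3 counts.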
